A study of Mus musculus with 7 samples.

Results

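The regions described here are stretches of the ATDC5 genome that carried 5-hydroxymethylcytosine (5hmC) at day 5 of chondrogenic differentiation and were listed again at day 10. They were chosen by the readout itself: a row of the day 5 5hmC list was taken when it overlapped, by 1 bp or more, any row of the day 10 5hmC list. Of the 2058 day 5 regions 609 did so (29.6%, 95% Wilson interval 27.7 to 31.6), and these are called kept regions. The other 1449 are called day 5 only regions. The kept regions overlapped 710 of the 4164 day 10 regions (17.1%, 15.9 to 18.2), here called partners, and the other 3454 are day 10 only regions. The 4 lists of the series held 8949 regions in all.

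ATDC5 is a mouse chondroprogenitor line derived from a teratocarcinoma, and it differentiates toward cartilage in a medium with serum and ascorbic acid once insulin, transferrin and selenite are supplied. The series had 7 samples of genomic DNA: 1 of input DNA without enrichment and 1 enriched for 5-methylcytosine (5mC) at day 0, when cells were progenitors, 1 enriched for 5mC at day 10, and 2 enriched for 5hmC at each of days 5 and 10, when cells were labelled as differentiating chondrocytes. To ask how both marks moved during differentiation, the authors deposited 1 list of regions for each enriched group. Days are those of the labels, while the study's text names other days for its profiles. Were a label wrong the days or their order in time could change, which was not tested. The study describes the peak calling as a search for regions that gained or lost a mark in chondrocytes against progenitors, and the sample each list was compared with is not given in the sources used here. Both samples of a day were merged into 1 5hmC list before peaks were called, and the labels do not say whether they were separate cultures. There was thus no spread between replicates, and sequencing depth is unknown. Intervals cover counting error over regions only, and each test compares regions of 1 list with each other, not samples. A region that missed the threshold at 1 day may still have carried the mark.

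Cytosine in CpG dinucleotides is methylated by DNA methyltransferases, and the TET enzymes oxidize 5mC to 5hmC. 5hmC can be an intermediate on the way to unmodified cytosine or a stable mark, and in many differentiated cells it is found in gene bodies and at active enhancers. In chondrogenesis SOX9 acts with SOX5 and SOX6 on cartilage matrix genes, RUNX factors act in hypertrophy, and AP-1 (FOS and JUN dimers), nuclear factor I (NF1) and TEAD proteins bind enhancers in many mesenchymal cells. Short strings of their preferred bases were therefore searched in the regions. The strings were TGACTCA for AP-1, TGCCAAG for NF1, AACCACA for RUNX, ACAAAGG or ACAATGG for SOX, GGAATG for TEAD, TGACGTCA for CREB, CCGGAAG for ETS and TTGCNNAA for C/EBP, each on both strands. A TGCCAAG and a GGAATG on the same strand can share bases. A match is a description of the letters and not a binding site.

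The sequences of the partners show what the bases common to both days look like. By a set rule, 6 partners were taken that were at most 300 bp long, lay wholly inside a kept region at a gene of the pathway lists described further on, held at least 1 string and touched no exon. They are on the + strand of GRCm38, with the strings in capitals.
Sox5, chr6:143845615-143845800: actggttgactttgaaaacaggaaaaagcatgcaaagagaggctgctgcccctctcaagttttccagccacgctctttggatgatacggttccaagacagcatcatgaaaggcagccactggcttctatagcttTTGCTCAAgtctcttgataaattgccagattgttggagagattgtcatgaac
Sox5, chr6:144278497-144278776: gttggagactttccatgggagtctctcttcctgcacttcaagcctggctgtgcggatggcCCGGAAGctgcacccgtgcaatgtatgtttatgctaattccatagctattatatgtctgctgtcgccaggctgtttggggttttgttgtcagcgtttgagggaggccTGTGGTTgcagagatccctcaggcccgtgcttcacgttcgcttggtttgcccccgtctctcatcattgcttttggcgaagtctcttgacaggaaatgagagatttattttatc
Nfib, chr4:82404444-82404613: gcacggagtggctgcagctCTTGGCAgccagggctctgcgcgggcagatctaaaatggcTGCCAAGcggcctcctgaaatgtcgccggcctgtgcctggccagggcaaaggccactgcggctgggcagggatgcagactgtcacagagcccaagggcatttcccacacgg
Tcf7l2, chr19:55740594-55740810: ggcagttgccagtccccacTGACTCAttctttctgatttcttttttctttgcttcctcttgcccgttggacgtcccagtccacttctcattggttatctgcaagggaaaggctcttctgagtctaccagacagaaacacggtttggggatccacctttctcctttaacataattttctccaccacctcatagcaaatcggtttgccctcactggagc
Pxn, chr5:115509361-115509639: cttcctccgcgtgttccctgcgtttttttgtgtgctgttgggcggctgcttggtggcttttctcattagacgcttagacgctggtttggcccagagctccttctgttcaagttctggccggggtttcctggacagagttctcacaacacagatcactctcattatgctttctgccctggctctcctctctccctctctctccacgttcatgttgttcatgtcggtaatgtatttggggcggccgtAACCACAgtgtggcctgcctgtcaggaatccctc
Palld, chr8:61775898-61776125: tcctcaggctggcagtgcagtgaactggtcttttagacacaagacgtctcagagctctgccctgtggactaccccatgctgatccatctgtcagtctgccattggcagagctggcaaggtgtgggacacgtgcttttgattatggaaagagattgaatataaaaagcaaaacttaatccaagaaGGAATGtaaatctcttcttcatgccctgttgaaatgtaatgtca
Both Sox5 partners are in gene bodies by position, and so are those of Nfib, Pxn and Palld, while that of Tcf7l2 lies upstream of its first start. The partner at Nfib, which encodes a nuclear factor I protein, holds the NF1 string on each strand. The partner at Tcf7l2, a DNA-binding partner of beta-catenin in WNT signalling, holds the AP-1 string. The second Sox5 partner holds a RUNX and an ETS string. CpG numbers in these 6 partners ran from 2 at the first Sox5 partner and at Palld to 11 at Pxn.

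Another 4 partners were picked after their values were seen, to show strings of different motifs within the bases common to both days. Among partners of at most 300 bp inside a kept region, outside exons, off chromosomes 18 and M and in regions whose window was at most 50% repeat, they ranked first by the number of different motifs and then of strings. The first 3 hold strings of 3 motifs, and the last holds 3 strings of 2 motifs.
Cnksr3, chr10:7182674-7182846: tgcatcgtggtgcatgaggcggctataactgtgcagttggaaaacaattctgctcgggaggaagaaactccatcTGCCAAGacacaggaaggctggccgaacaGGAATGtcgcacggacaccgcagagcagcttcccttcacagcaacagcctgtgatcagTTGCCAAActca
Poc1b, chr10:99131041-99131265: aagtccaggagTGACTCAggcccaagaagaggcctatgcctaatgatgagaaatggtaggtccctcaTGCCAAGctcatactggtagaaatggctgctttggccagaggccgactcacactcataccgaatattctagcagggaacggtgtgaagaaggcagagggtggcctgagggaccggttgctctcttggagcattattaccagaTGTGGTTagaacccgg
no protein-coding gene, chr8:91777850-91778103: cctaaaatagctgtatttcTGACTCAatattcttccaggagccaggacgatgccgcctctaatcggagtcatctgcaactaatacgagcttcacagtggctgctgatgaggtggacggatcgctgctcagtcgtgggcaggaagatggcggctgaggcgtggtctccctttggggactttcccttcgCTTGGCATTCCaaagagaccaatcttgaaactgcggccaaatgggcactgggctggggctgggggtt
no protein-coding gene, chr17:80808192-80808336: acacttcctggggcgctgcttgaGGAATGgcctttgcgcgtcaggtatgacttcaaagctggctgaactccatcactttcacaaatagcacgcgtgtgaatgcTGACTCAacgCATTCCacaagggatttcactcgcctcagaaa
The partner on chromosome 8 between 91777850 and 91778103 has an NF1 and a TEAD string that share bases, and an AP-1 string. The partner on chromosome 17 has a TEAD string on each strand, with an AP-1 string beside the second. The partner at Cnksr3 holds an NF1, a TEAD and a C/EBP string, and that at Poc1b an AP-1, an NF1 and a RUNX string.

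How the shared bases lay within the kept regions was described first, with no test, as the rule uses it. Of the 609 kept regions 535 (87.8%) had 1 partner and 74 (12.2%) had 2 or more. The partners were narrow. Their median width was 168 bp (quartiles 135 and 241), against 879 bp (722 and 1033) for the kept regions. Of the 710 partners 697 (98.2%) lay wholly inside the day 5 region. The partner midpoint fell in the central 50% of the day 5 region for 574 (80.8%), and within 200 bp of its midpoint for 536 (75.5%). It lay to the left for 368 (51.8%), with a median distance of 107.0 bp on either side. The kept regions and partners shared a median of 188 bp, or 22.0% of a kept region (range 6.33% to 75.3%). A typical kept region was a broad day 5 region with 1 short day 10 region near its centre.

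Wider day 5 regions were kept more often. A wider region has more bases in which an overlap can fall, so that width is in part set by the rule. Kept regions ranged from 340 to 6582 bp, and day 5 only regions from 362 to 2730 bp with a median of 790 bp (643 and 943). The share kept was 18.2% (53 of 291) below 600 bp, 23.8% (158 of 664) from 600 to below 800 bp and 33.0% (218 of 660) from 800 to below 1000 bp. It was 37.9% (143 of 377) from 1000 to below 1500 bp and 56.1% (37 of 66, 44.1 to 67.4) at 1500 bp or more. At day 10 the partners, with a median of 168 bp, compared with 144 bp (130 and 183) for day 10 only regions.

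**Figure D1:**
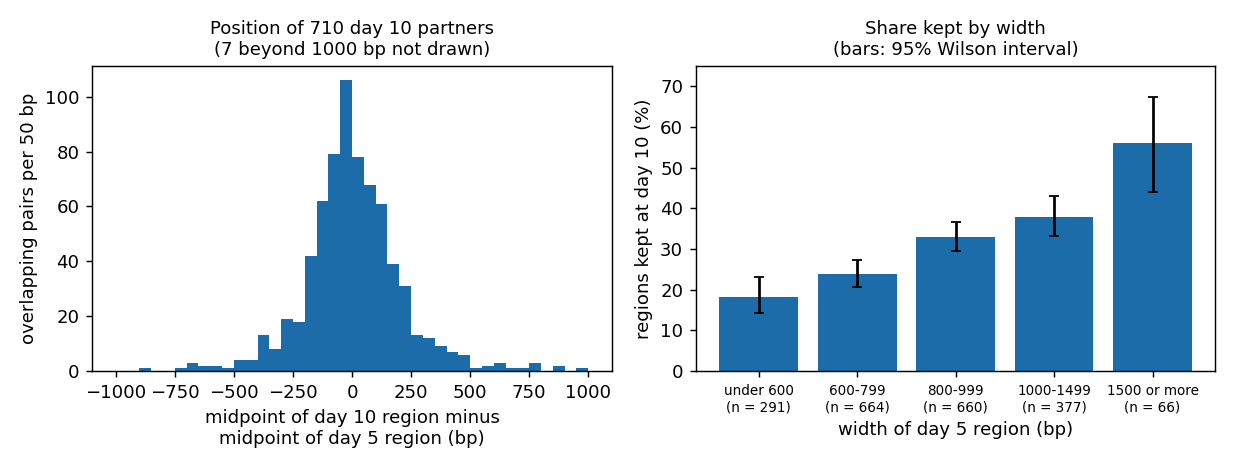
Left, number of overlapping pairs per 50 bp by the distance in bp from the midpoint of the day 5 region to that of its day 10 partner (710 pairs, 7 beyond 1000 bp not drawn); right, share of day 5 regions kept in 5 bands of width in bp, bars with 95% Wilson intervals. Most pairs lie within 200 bp of 0, and the share kept runs from 18.2% in the narrowest band to 56.1% in the widest.

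At the edge of the rule the smallest overlaps were 47 bp in Ube2h, which encodes a ubiquitin-conjugating enzyme (chr6:30252368-30253110), 57 bp in Traf2, an adaptor of tumour necrosis factor receptors (chr2:25525454-25526030), and 57 bp in Deaf1, a transcription factor (chr7:141319813-141320347). Just outside were regions that missed a day 10 region by 11 bp (chr2:116913576-116914343, D330050G23Rik by the authors' symbol), by 70 bp (chr11:45103106-45103982, Gm12159) and by 86 bp (chr6:145998255-145998851). The gap from a day 5 only region to the nearest day 10 region had a median of 100346 bp, was at most 500 bp for 9 regions and at most 1000 bp for 18 (1.24%). For 132 of the 1449 (9.11%) it was at most 10000 bp.

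The widest kept regions and those with most partners lay in multicopy sequence. The widest, of 6582 bp, covered the mitochondrial genome from 9 to 6590 and had 5 partners over 50.9% of its length. The next, of 6114 bp, lay on chromosome 17 from 39842853 to 39848966 at Rn45s, the 45S ribosomal RNA precursor gene, with 3 partners over 20.6%. A region of 4564 bp at the predicted gene Gm21738 (chromosome 14 from 19415289 to 19419852) had the highest shared part, 75.3%, from 2 partners of 1242 and 2193 bp. On chromosome 9 a cluster of 9 kept regions lay between 2999841 and 3038570, near the centromeric end, at predicted genes such as Gm10717, Gm10718 and Gm11168. The regions from 3025165 to 3027974 and from 3003824 to 3006125, of 2810 and 2302 bp, had 6 and 4 partners, and that from 2999841 to 3001613 had 5. A region on chromosome 4 from 3089355 to 3091309 also had 6.

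Together, mitochondrial regions, those at Rn45s and those within 200 kb of a centromeric end numbered 18 in the day 5 list, of which 16 were kept and 2 were not. They held 54 of the 710 partners, and 10 of the 12 kept regions with 3 or more partners. Reads from some of this repeated or multicopy DNA may not be placed with certainty, and the part of this in these regions being kept was not tested. Without them 593 day 5 regions were kept and 1447 were not, a share of 29.1%. Later values without multicopy regions leave out only these kinds of region, and the region at Gm21738 stays in.

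The share kept was uneven over the chromosomes, as a description with no test. Chromosomes 5 and 6 had 65 kept regions each, 37.1% of 175 and 37.6% of 173, and the most per length among the nuclear chromosomes (0.428 and 0.434 per Mb). Chromosome 3 had the lowest share, 21.3% (23 of 108). Chromosome X had 3 kept regions of 12, or 0.0175 per Mb. Of the kept regions 25 (4.11%) were within 10 kb of another kept region, regions of the chromosome 9 cluster among them. Of the 1449 day 5 only regions 14 (0.966%) were within 10 kb of a kept one.

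The base content was then compared with that of day 5 only regions. To keep width out of the comparison of sequence, a window of 200 bp at the midpoint of each region was used. Location was that of the midpoint, while overlap with 5mC was scored over the whole region, so that width enters it. 16 features that the rule did not use were tested with two-sided Fisher's exact tests, with Benjamini-Hochberg adjustment over the 16. Of these 3 passed an adjusted p of 0.05: the AP-1 string, a window that was mostly repeat, and overlap with a day 10 5mC region.

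The AP-1 string was less common in kept regions. It was present in the window of 70 of 609 kept regions (11.5%, 9.20 to 14.3) and of 314 of 1449 day 5 only regions (21.7%, 19.6 to 23.9), with 18.7% over all day 5 windows. The difference was -10.2 percentage points (95% Newcombe interval -13.4 to -6.73) with an odds ratio of 0.469 (Fisher's exact test, adjusted p = 4.63e-07). A lower AP-1 share of kept regions was already known from earlier results of these data when members and strings were chosen. The p-value thus describes a difference already seen and is no independent test of it. The difference recurred in each band of width. Below 600 bp the shares were 3.77% (2 of 53) of kept and 17.6% (42 of 238) of day 5 only regions. From 600 to below 800 bp they were 13.3% and 22.9%, from 800 to below 1000 bp 13.8% and 25.3%, and at 1000 bp or more 9.44% and 16.7%. The same held by location. The shares were 8.96% and 20.9% in promoters, 11.9% and 22.2% in gene bodies and 11.7% and 20.9% in intergenic regions. Among regions with the midpoint in an exon they were 12.3% (7 of 57) and 22.4% (35 of 156), where the interval of the difference, -19.6 to 2.27, included 0. On 16 of the 17 chromosomes with 10 or more kept regions the share was lower in kept regions. These strata were chosen after the overall difference was known and carry no test.

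**Figure D2:**
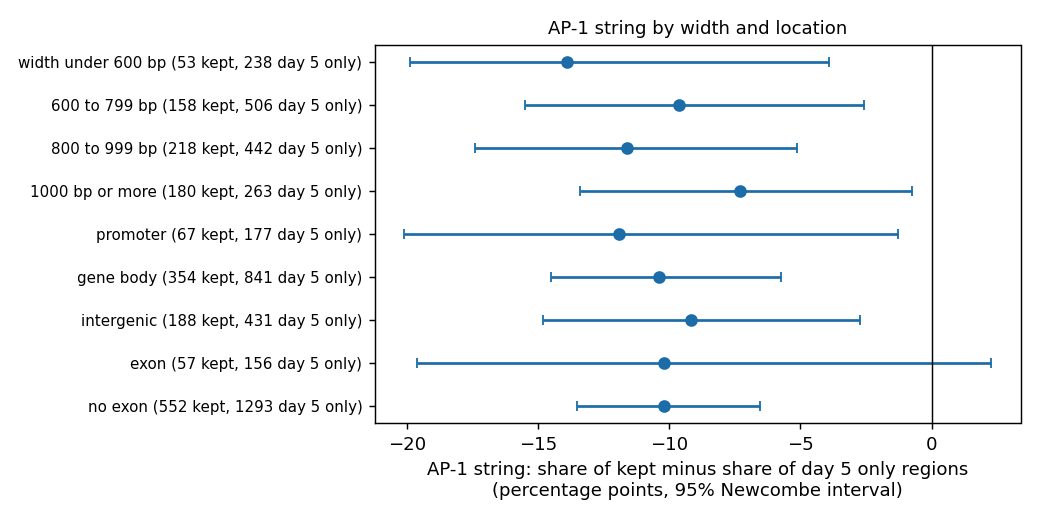
Difference in the share of regions with the AP-1 string in the 200 bp window, kept minus day 5 only, in percentage points with 95% Newcombe intervals, by width, location and exon overlap of the midpoint. All 9 points lie below 0, from -13.9 for widths under 600 bp to -7.29 for 1000 bp or more, and the interval for exons crosses 0.

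The position of the strings was described along 3 kb around the day 5 midpoint. In the 100 bp on either side of the midpoint there were 0.657 and 0.624 AP-1 strings per kb in kept regions, and 1.11 and 1.26 in day 5 only regions. Far from the midpoint, in the bin centred 1450 bp to the left, there were 0.148 and 0.166. AP-1 strings were therefore denser at the centre than in the flanks in both groups, with a lower centre in kept regions. CpG dinucleotides peaked at the centre too, with 2.14 per 100 bp in kept and 2.27 in day 5 only regions in the bin left of the midpoint, against 1.09 and 1.17 in the bin at 1450 bp.

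**Figure D3:**
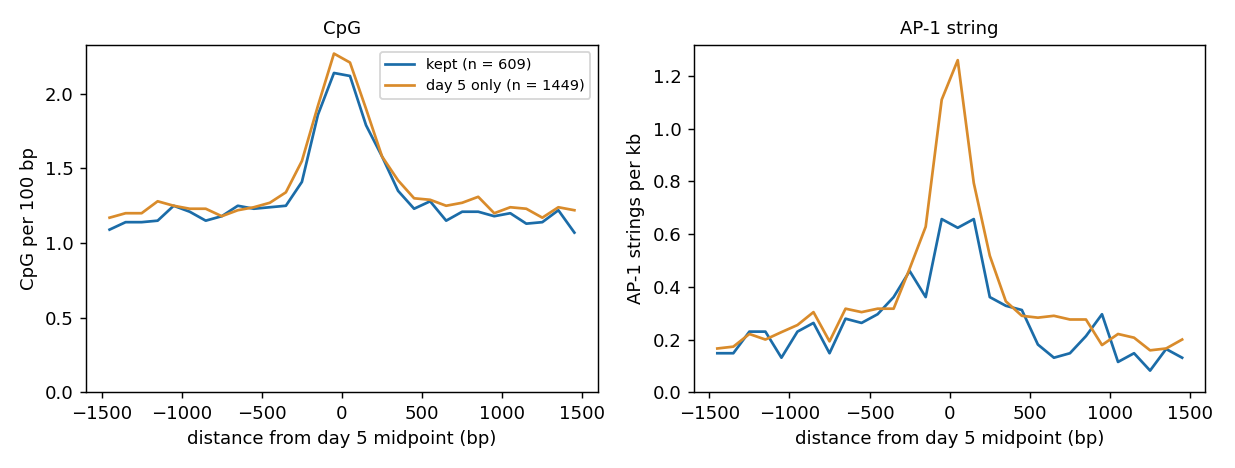
CpG dinucleotides per 100 bp (left) and AP-1 strings per kb (right) in bins of 100 bp, by distance in bp from the midpoint of the day 5 region, for 609 kept and 1449 day 5 only regions. Both quantities peak at the midpoint, and the AP-1 peak reaches 1.26 per kb in day 5 only regions and 0.657 in kept regions.

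No other string differed past the threshold. The NF1 string was in 9.03% of kept and 6.76% of day 5 only windows (difference 2.27 points, -0.202 to 5.07, Fisher's exact test, adjusted p = 0.257, 7.43% of all windows). Over the whole regions instead of the window the NF1 difference was 7.88 points (adjusted p = 6.94e-04 in Fisher's exact test), a comparison into which the greater width of kept regions enters. The RUNX string was in 9.20% and 7.87% (8.26% of all), the SOX strings in 5.91% and 7.73% (7.19%), and the TEAD string in 14.8% and 15.1% (15.0%). For C/EBP the shares were 8.70% and 8.42% (8.50%), and for ETS 1.15% and 1.86% (1.65%). Adjusted p for these ran from 0.429 to 0.952 (Fisher's exact tests). The CREB string was in 0 of 609 kept windows, which by a limit of 3 counts allows a share of up to 0.493% (upper Wilson limit 0.627%), and in 6 of 1449 day 5 only windows (0.414%), and a difference was not detectable with these numbers. It was in 0.292% of all windows. None of the 8 motifs was in the window of 324 kept regions (53.2%) and 684 day 5 only regions (47.2%).

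CpG content did not differ past the threshold. The median was 4 CpG per window in each, and 36.9% of kept against 42.6% of day 5 only windows were above the median of all (difference -5.64 points, -10.2 to -0.987, Fisher's exact test, adjusted p = 0.0737). There was no CpG in 23 kept windows (3.78%) and in 30 of the others (2.07%). The median GC content was 50.5% and 51.5%.

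Windows that the reference marks as repeat over more than 50% of their bases were more common in kept regions, 48 of 609 (7.88%) against 46 of 1449 (3.17%). The difference was 4.71 points (2.56 to 7.25), with an odds ratio of 2.61 (Fisher's exact test, adjusted p = 6.51e-05). Without the mitochondrial, Rn45s and centromere-near regions, an alternative chosen after the data were seen, it was 2.89 points (0.941 to 5.25, adjusted p = 0.0213 in Fisher's exact test). Among regions of 500 to 1500 bp it was 2.70 points (adjusted p = 0.0525 in Fisher's exact test), past the threshold no longer.

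**Figure D4:**
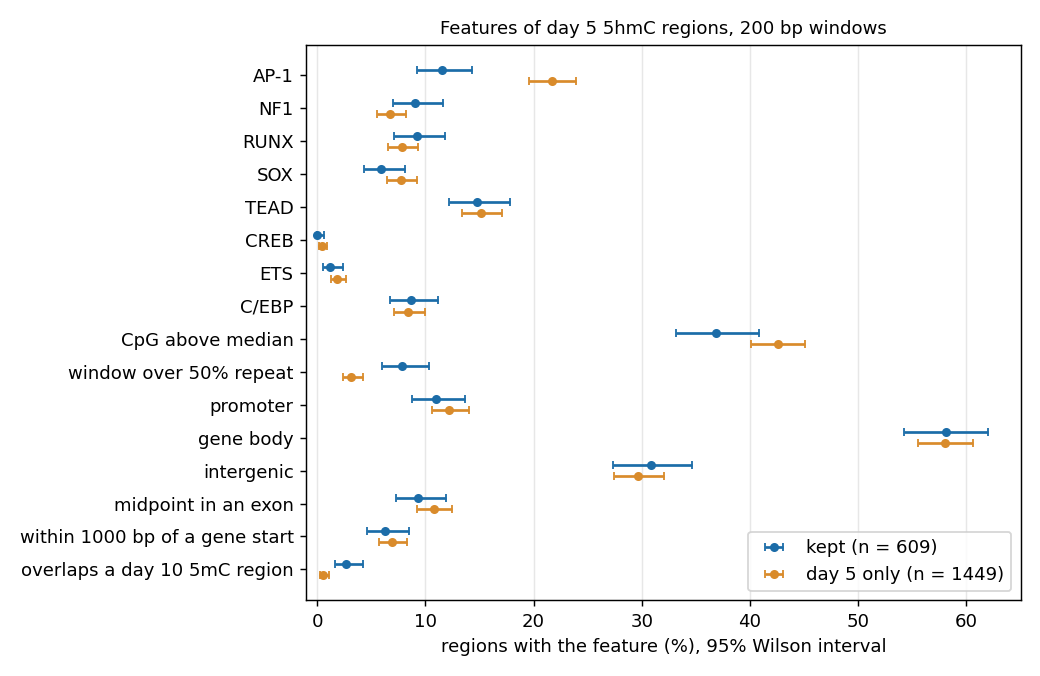
Share of regions (percent, with 95% Wilson intervals) that have each of 16 features, for 609 kept and 1449 day 5 only regions, in the 200 bp window (strings, CpG and repeat), at the midpoint (location) or over the whole region (5mC). The intervals of both groups are apart for the AP-1 string (11.5% and 21.7%), repeat windows (7.88% and 3.17%) and overlap with a day 10 5mC region (2.63% and 0.552%).

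No feature of location relative to genes differed past the threshold. The midpoint was in a gene body for 58.1% of kept and 58.0% of day 5 only regions (interval of the difference -4.60 to 4.72), in the 5000 bp upstream of a start for 11.0% and 12.2% (-4.08 to 1.95), and in neither for 30.9% and 29.7% (-3.15 to 5.55). It was in an exon for 9.36% and 10.8%, and within 1000 bp of a start for 6.24% and 6.90%. Adjusted p ran from 0.613 to 1.00 for these 5 features (Fisher's exact tests). The median distance to the nearest start was 16296 bp for kept and 15277 bp for day 5 only regions. Of the kept regions 492 (80.8%) touched no exon, 72 (11.8%) touched a coding exon, 12 (1.97%) a UTR but no coding exon, and 33 (5.42%) an exon of a noncoding transcript. Among day 5 only regions these shares were 77.6%, 13.3%, 3.24% and 5.80%.

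The partners were next set against day 10 only regions by the same 16 features, in windows of 100 bp because these regions are narrow. The AP-1 string was in 5.77% of partners and 4.86% of day 10 only regions (difference 0.911 points, -0.766 to 2.99, adjusted p = 0.6 in Fisher's exact test). In windows of 200 bp it was 3.57 points (adjusted p = 0.0115 in Fisher's exact test) and over whole regions 3.80 points (adjusted p = 0.00331 in Fisher's exact test), so that its call depended on the window. In none of the 8 alternatives was the AP-1 share lower in partners than in day 10 only regions. The other 7 motifs gave adjusted p from 0.258 to 1.00 in this window (Fisher's exact tests), among them NF1 with 5.92% and 4.43%.

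Partners more often had a CpG count above the median, though the median itself was 2 per window in partners and in day 10 only regions. Of the 710, 272 (38.3%) had more CpG in the window than the median of all day 10 regions, against 1086 of 3454 (31.4%). The difference was 6.87 points (3.03 to 10.8, adjusted p = 0.00174 in Fisher's exact test) and lay between 6.37 and 11.8 under all 8 alternatives, each past the threshold. Mostly repeat windows made up 15.4% of partners and 7.04% of day 10 only regions (8.32 points, 5.69 to 11.3, adjusted p = 3.21e-10 in Fisher's exact test). Without the mitochondrial, Rn45s and centromere-near regions the repeat difference was 3.12 points (adjusted p = 0.0355 in Fisher's exact test). Midpoints in exons (10.8% and 6.40%, adjusted p = 4.27e-04) and within 1000 bp of a start (8.87% and 6.25%, adjusted p = 0.0426) were more common in partners by Fisher's exact test. Both calls were lost without the mitochondrial, Rn45s and centromere-near regions, with differences of 2.09 points (adjusted p = 0.189) and -0.177 points (adjusted p = 0.99) by the same exact test.

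Within the kept regions, the bases inside partners (146.5 kb) were described against the rest (432.6 kb). CpG dinucleotides numbered 23.1 per kb inside and 15.9 outside. AP-1 strings numbered 0.58 and 0.402 per kb, NF1 strings 0.553 and 0.303, and RUNX strings 0.437 and 0.354. SOX strings were at 0.253 and 0.34 and C/EBP strings at 0.396 and 0.437 per kb. TEAD strings were at 1.35 and 0.663 per kb, but 50 of the 198 inside came from a single region on chromosome 17 (4626071 to 4626762), and in kept regions whose window was at most 50% repeat they were at 0.857 and 0.662. Partners lay near the centre of the kept regions, where CpG and AP-1 strings were dense, so position and sharing cannot be told apart in these densities.

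Overlap with 5mC was a further readout. At day 10, 16 of the 609 kept regions (2.63%, 1.62 to 4.22) overlapped a 5mC region, against 8 of 1449 day 5 only regions (0.552%, 0.28 to 1.09). The difference was 2.08 points (0.938 to 3.70), with an odds ratio of 4.86 (Fisher's exact test, adjusted p = 9.26e-04). With 5mC scored over the 200 bp window alone, which keeps width out and was chosen after the data were seen, the shares were 1.81% and 0.345%, a difference of 1.46 points (adjusted p = 0.00706 in Fisher's exact test). The difference lay between 1.46 and 2.08 points under the 9 alternatives, with adjusted p up to 0.0373 in Fisher's exact test. Among these, the longer window and the whole region do not alter the 5mC score and repeat the 2.08 points. The partners overlapped 5mC more often than day 10 only regions too, 19 of 710 (2.68%) against 10 of 3454 (0.29%, adjusted p = 5.92e-08 by Fisher's exact test). Of these, 8 of the 19 partners and 1 of the 10 day 10 only regions were mitochondrial, at Rn45s or centromere-near. The difference of 2.39 points was 1.41 without such regions (adjusted p = 0.00111) and 1.16 among day 10 regions of 100 to 300 bp (adjusted p = 0.00804), by the same exact test. The counts of kept regions and of partners share loci, since most partners lay inside kept regions, and are not separate results. With day 0 5mC 0 of 609 kept regions overlapped, which by the same limit of 3 counts allows a share of up to 0.493% (upper Wilson limit 0.627%). The same share for day 5 only regions is not given here, so this 0 is not read as a trait of kept regions.

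Of these 16 regions 2 lay at Myc, which encodes a transcription factor of growth and proliferation. They ran over coding exons at chr15:61987052-61988559 and chr15:61989118-61990095, and 56.4% and 66.3% of their bases were shared with a day 10 5hmC region. A single 5mC region from 61987205 to 61990617 covered 89.9% of the first and all of the second. Downstream, 2 more kept regions lay in introns of Pvt1, the noncoding RNA gene next to Myc, with 24.9% and 44.4% of their bases shared. Others of the 16 lay at Pik3r1, the regulatory subunit of phosphoinositide 3-kinase, and at Pxn, Pkd2, Sh3pxd2a, Zfp821, Cmip and Lipc. The 5mC regions there covered from 3.66% of the region at Sh3pxd2a to all of it at Lipc. The rest were the mitochondrial and Rn45s regions and 5 regions without a symbol by the authors.

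Genes were counted as carrying a region in the gene body or in the 5000 bp upstream. A kept region was carried by 353 of 21924 protein-coding genes (1.61%). Among the 1118 genes with any day 5 region these were 31.6%, the value against which lists were read. Both counts include multicopy sequence. The mitochondrial region alone was counted for several mitochondrial genes, and the chromosome 9 cluster for several predicted genes. A share without them is not given here. Of the 353 genes, 323 had 1 kept region, 24 had 2 and 6 had 3 or more. The long gene Foxp1, a forkhead repressor, had 4, all in introns, at chr6:98946859-98948500, chr6:98990191-98991162, chr6:99024344-99025263 and chr6:99327557-99328432. They shared 305, 110, 440 and 314 bp with their partners, beside 2 day 5 only and 9 day 10 only regions in the same gene. Babam2, a subunit of a deubiquitinase complex in DNA repair (Bre by the authors' symbol), also had 4, between 31750551 and 32043853 of chromosome 5, sharing from 135 to 289 bp each. Gm20388 had 5, but this predicted gene model spans 4434.9 kb of chromosome 8 and overlaps many other genes. The genes with 3 were Gm10715, Gm10717 and Gm17535 of the chromosome 9 cluster.

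Across 12 lists of genes for cartilage formation, 53 of 256 genes had a day 5 region and 19 of these a kept one (35.8%), beside 31.6% over all genes. The lists were written with earlier results of these data known, so their counts are descriptions.

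**Figure D5:**
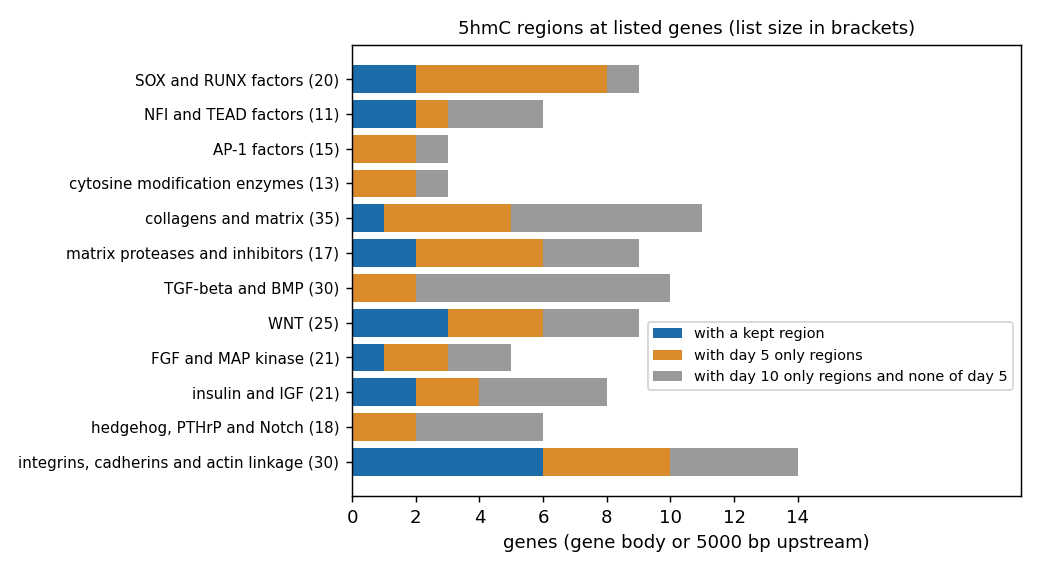
Number of genes in each of 12 lists (list size in brackets) that have a kept region, a day 5 region but none kept, or only day 10 regions without a day 5 partner, in the gene body or 5000 bp upstream. Integrins, cadherins and actin linkage have most genes with a kept region, 6, and 4 lists have none.

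Transcription factors came first. In the list of SOX, RUNX and associated factors 2 of the 8 genes with a day 5 region had a kept one, Foxp1 and Sox5. Sox5, a partner of SOX9 on cartilage matrix genes, had 2 in introns. The first (chr6:143844869-143845992) had no CpG in its window and shared 186 bp, and the second (chr6:144278264-144278988) had 9 and shared 280 bp. The other 6, Runx1, Runx2, Runx3, Trps1, Gli2 and Gli3, had day 5 only regions. Among NFI and TEAD factors Nfib (chr4:82404328-82404982, 170 bp shared) and Nfic (chr10:81431072-81432080, 129 bp) had an intronic kept region each and Yap1 a day 5 only one. Among AP-1 factors Fosb and Fosl2 carried day 5 only regions, as did Tet3 and Mbd2 among enzymes and readers of cytosine modification, so that 0 of the 2 genes of either list had a kept region.

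Matrix genes followed. Fbn1, which encodes the microfibril protein fibrillin-1, was the 1 gene of 5 with a kept region in the collagen and matrix list. It had 2, over a coding exon (chr2:125330335-125331204, 128 bp shared) and in an intron (chr2:125496719-125497058, 79 bp). Col3a1, Col5a2, Col12a1 and Col27a1 had day 5 only regions. Among proteases and inhibitors Adamts9, a metalloprotease that cleaves matrix proteoglycans, had 1 over a coding exon (chr6:92872628-92873267, 234 bp in 2 partners). Adamtsl1, a related matrix protein without protease domain, had 1 in an intron (chr4:86299546-86300151, 311 bp in 2 partners), and it was the 1 kept region at a listed gene with the AP-1 string in its window. Mmp2, Adamts2, Adamts6 and Adamtsl3 had day 5 only regions.

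Of the signalling lists, WNT had 3 genes of 6. The kept region at the ligand gene Wnt4 lay upstream, at the limit of the 5000 bp (chr4:137271647-137272536, 222 bp shared). Those at the transcription factor genes Tcf7l1 (chr6:72713888-72715594, 488 bp) and Tcf7l2 (chr19:55740328-55741121, 217 bp) lay in an intron and upstream. Wnt5b, Lef1 and Ror2 had day 5 only regions. A region that shared 60 bp (chr7:130362706-130363079) was counted for the growth factor receptor gene Fgfr2. It lay outside all annotated Fgfr2 transcripts but a single one that runs across many neighbouring genes, had no symbol by the authors and a window that was all repeat. In the same FGF and MAP kinase list Map3k1 and Pdgfrb had day 5 only regions. In the insulin list Pik3r1 had a region over a coding exon (chr13:101685768-101686650, 117 bp shared) and Rptor, a subunit of the mTOR complex that senses nutrients, an intronic one (chr11:119792695-119793772, 339 bp), whereas Foxo3 had a day 5 only region. In the TGF-beta and BMP list Bmpr1b and Smad3, and in the hedgehog, PTHrP and Notch list Ptch1 and Pthlh, had day 5 only regions, and neither list had a gene with a kept one.

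Genes of cell adhesion and the actin cytoskeleton had the most, 6 of 10. Pxn, the focal adhesion adaptor paxillin, had 2 kept regions, at chr5:115508992-115510061 (279 bp shared) and chr5:115514751-115515676 (277 bp in 2 partners). Itgb5, an integrin beta subunit (chr16:33903906-33905064, 143 bp), Cdh13, a cadherin anchored by a lipid (chr8:118847009-118847421, 59 bp), and Palld, the actin scaffold palladin (chr8:61775657-61776443, 228 bp), had 1 in an intron each. Myh9, Tns1, Tns3 and Lpp had day 5 only regions. The 6 genes with a kept region were 60.0% of those with a day 5 region, beside 31.6% over all such genes, a share that rests on 10 genes.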

How the data were processed

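5hmC and 5mC were profiled by enrichment and sequencing of ATDC5 genomic DNA. Per the study's methods and the submitters' processing notes, the authors trimmed reads with cutadapt, aligned them with BWA to GRCm38 (mm10), filtered on mapping quality and called peaks with MACS 1.4.2 at default settings. The deposited values are region coordinates in bp on that build, printed as given, with a gene symbol for some rows. Per the file headers the 5hmC lists hold regions of at least 10-fold enrichment in merged samples, and the 5mC lists of at least 3-fold. No list holds a count, score, fold or p-value per region, and depth could not be assessed. Enrichment captures fragments, so region width depends on fragment length, threshold and depth. The input sample was not used here.

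Blank rows in both 5hmC files (27818 and 25449) were dropped, and no region was filtered. Overlap was 1 bp or more. Location came from 55450 genes of GENCODE mouse release 21, with the 5000 bp upstream of a start taken before the gene body. Sequences were read from the RefSeq copy of GRCm38, in which repeats are in lower case. Windows of 200 bp (day 5) or 100 bp (day 10) were centred on midpoints. Shares were compared by two-sided Fisher's exact tests (scipy 1.17.1), with Benjamini-Hochberg adjustment over 16 features per list and a threshold of 0.05. Wilson intervals were used for shares and Newcombe intervals for differences, at 95%. For a share of 0, the limit given is that of 3 counts. The code was tested on simulated data.

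The members, gene lists and strings were chosen with earlier results of these data known, among them the lower AP-1 share of kept regions. The rule for naming took listed genes with a kept region (up to 4 per list by shared length), the 5 widest, the 5 with most partners, genes with at least 4 kept regions, and 3 regions on each side of the edge. Other genes in the text, the remaining adhesion genes among them, were chosen after their values were seen. The alternatives covered the overlap rule, the window, chromosomes, repeats, widths, promoter length, gene set, merging of regions, the authors' symbols and the multicopy regions. Some genes that enter the counts are not reported here by name.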

Additional observations from a re-analysis of the deposited data

How the results depend on the processing

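Differences are kept minus day 5 only, or partners minus day 10 only, in percentage points. Multicopy regions here are the mitochondrial, Rn45s and centromere-near ones, and other multicopy sequence was not left out. Of 136 day 5 values under alternatives, 126 kept direction and side of the threshold, as did 116 of 136 at day 10, and the cause of the other changes was not tested. Part of this was fixed in advance. A longer window or the whole region leaves the differences in location and 5mC overlap as they were. The 50 bp and midpoint overlap rules left 608 and 607 of the 609 kept regions, so they could change little. The AP-1 difference at day 5 stayed between -13.8 and -9.62, past the threshold in all 8 alternatives. The share kept was 29.1% to 30.0%, and the number of listed genes 18 or 19.

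At day 5, values near 0 changed sign: gene body to -0.00975 with 50 bp of overlap, -0.108 with the midpoint rule and -0.131 with 2000 bp promoters, TEAD to 0.0785 over whole regions, 0.0195 at 500 to 1500 bp and 0.0119 without multicopy regions, and with 2000 bp promoters the promoter to 0.364 and intergenic to -0.233. NF1 passed over whole regions (7.88), and repeat windows no longer passed at 500 to 1500 bp (2.70).

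At day 10, AP-1 passed in windows of 200 bp (3.57) and over whole regions (3.80), where NF1 passed too (2.59) and RUNX (0.728), TEAD (0.584) and C/EBP (0.057) changed sign. The promoter difference turned to -0.0241 on autosomes, -1.20 in windows of at most 50% repeat and -2.07 without multicopy regions, and TEAD turned to 0.118 in those windows, 0.571 at 100 to 300 bp and 0.47 without multicopy regions. At 100 to 300 bp gene body turned to -0.577 and intergenic to 0.456. Nearness to a start no longer passed on autosomes (1.94), in windows of at most 50% repeat (0.874) and at 100 to 300 bp (0.543), and turned to -0.177 without multicopy regions. Exons no longer passed at 100 to 300 bp (2.70) and without multicopy regions (2.09).

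Leaving out multicopy regions, 5mC overlap of the midpoint window and the AP-1 strata were added after seeing the data. No paired analysis was possible because each 5hmC list came from both samples of its day, and leaving out a replicate was not possible either. With no score or depth per region, a site lost at day 10 cannot be told apart from one that fell below the threshold.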
